A study of Sus scrofa with 8 samples.

Results

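Myocardin (MYOCD) and 5 muscle genes linked to serum response factor (SRF) were followed in heart muscle of pigs with a myocardial infarction: smoothelin (SMTN), calponin (CNN1), smooth muscle actin (ACTA2), the actin-binding protein ABRA and the Xin actin-binding protein XIRP1. Every probe set whose only gene symbol in the platform annotation was one of these 6 was taken, which gave 8 probe sets of 23999 tested and 6 genes of 6765 named. SMTN had 3 probe sets and each of the other 5 genes had 1. The genes were picked with results of these same animals already known, so their differences between groups are given as a description and no test is drawn from them.

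SRF is a transcription factor that binds short DNA elements called CArG boxes in front of muscle genes and of genes that answer growth signals within minutes. Myocardin is a coactivator that binds SRF and turns on the contractile genes of smooth muscle and of the heart. The related coactivators MRTFA and MRTFB are held outside the nucleus by monomeric actin, so the state of the actin cytoskeleton also sets SRF activity. In the heart MYOCD is made by cardiac muscle cells and by the smooth muscle cells of vessels.

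The study asked how glial growth factor 2 (GGF2), an isoform of neuregulin-1 that acts through ERBB receptors, altered gene expression after infarction. All 8 animals were castrated male Yorkshire swine under 1 year of age, with a mean weight of 54.5 kg, and all of them, the untreated ones included, had an infarct. Tissue came from left ventricle away from the infarct, with 1 Affymetrix porcine array for each animal: 3 untreated animals, 3 given GGF2 at 0.67 mg/kg per infusion (low dose) and 2 given 2.0 mg/kg per infusion (high dose), the treated ones for 4 weeks. The labels name a separate pig for each array, and 2 or 3 arrays in a group limit the precision. Values are the deposited RMA values, on a log2 scale on which 1 unit is a doubling of signal.

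The arrays were alike in distribution, with medians of 5.34 to 5.39 and lower quartiles of 3.72 to 3.80, below which a value was taken as close to background. None of the 8 probe sets fell below the lower quartile on any array. Untreated replicate 2 and low-dose replicate 1, whose labels carry neighbouring tag numbers, shared part of their deviation from their groups. Across 23999 probe sets, which are not independent, r between the deviations was 0.35, the highest of 21 pairs of arrays from different groups, which ran from -0.38 to 0.35. The next highest was 0.28, for untreated replicate 1 with low-dose replicate 2. As deviations cancel out within each group, the 21 values are tied to one another. Values are also given without untreated replicate 2 and low-dose replicate 1, as a description only. Several of the genes were known to stand high in both animals when this was chosen. The tissue was heart muscle by its markers, with 6 of 7 cardiomyocyte markers measured and none of those near background. Their summed log2 level was 16.73 to 16.82 in untreated pigs, 16.82 to 16.83 in low-dose pigs, and 16.82 to 16.83 in high-dose pigs. The sum weighs most on MYH7, TNNI3 and MYL2, at mean log2 levels of 14.87, 14.76 and 14.71. The highest value on each array was 14.98 to 15.01, and whether signals so close to it were saturated was not tested.

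MYOCD was the gene whose high-dose animals stood clearest apart. Its log2 level was 6.06, 6.15 and 6.09 in untreated pigs, 6.16, 6.01 and 6.36 in low-dose pigs, and 7.71 and 7.29 in high-dose pigs. The high-dose animals lay above all others by more than the spread within any group, while low-dose and untreated animals overlapped. The group means were 6.10 ± 0.05 in untreated pigs (SD, n = 3), 6.17 ± 0.18 in low-dose pigs (n = 3) and 7.50 ± 0.30 in high-dose pigs (n = 2). The log2 difference was 1.40 ± 0.16 for high dose against untreated (moderated SE), a fold of 2.64, and 1.33 ± 0.16 for high against low dose. Low dose against untreated gave 0.07 ± 0.14, with a sign that turned without low-dose replicate 3, to -0.02. The animals with neighbouring tag numbers were not set apart in MYOCD: without them the differences were 1.42, 0.11 and 1.32, in the order high against untreated, low against untreated and high against low.

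Smoothelin, an actin-binding protein of contractile smooth muscle, had a small and even difference on its brightest probe set. That probe set had log2 levels of 10.02, 10.04 and 10.18 in untreated pigs, 10.43, 10.30 and 10.33 in low-dose pigs, and 10.57 and 10.44 in high-dose pigs. The 3 groups stood in order of dose with no overlap, though the lowest high-dose animal and the highest low-dose animal were 10.44 and 10.43. Across the array, 0.229% of all probe sets had 3 groups in rising order without overlap. The log2 difference was 0.43 ± 0.11 for high dose against untreated, 0.28 ± 0.10 for low dose against untreated and 0.16 ± 0.11 for high against low dose. The last of these was 0.09 when quantile normalization was repeated and also without high-dose replicate 1. SMTN had one of the smaller within-group spreads on the array, with an SD of 0.08, at the 6.2 percentile of all probe sets.

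The 2 dimmer SMTN probe sets followed it in part at most. Their mean log2 levels of 4.93 and 4.44 lay below the median of every array. One had means of 4.85, 4.90 and 5.10 in untreated, low-dose and high-dose animals, and the other had 4.33, 4.59 and 4.38. For low dose against untreated their log2 differences were 0.06 ± 0.13 and 0.26 ± 0.17, the latter near the 0.28 of the brightest probe set. Their log2 differences for high dose against untreated were 0.25 ± 0.15 and 0.05 ± 0.19, and all 3 groups overlapped on both. The first of these depended on single animals, at 0.41 without high-dose replicate 1 and 0.09 without high-dose replicate 2, and the second was -0.03 without untreated replicate 1.

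Calponin, which binds actin and slows the myosin motor in smooth muscle, varied widely between animals. CNN1 had log2 levels of 6.00, 6.89 and 4.97 in untreated pigs, 8.41, 6.76 and 7.08 in low-dose pigs, and 8.43 and 7.46 in high-dose pigs. Both high-dose animals lay above all untreated ones, the low-dose animals overlapped with each of the other groups, and low-dose replicate 1 was level with the higher of the high-dose animals. The log2 difference was 1.99 ± 0.62 for high dose against untreated and 1.46 ± 0.56 for low dose against untreated, which was the 8th highest of 23999 in that comparison. For high against low dose it was 0.53 ± 0.62, less than its error. The low-dose difference was 0.97 when either untreated replicate 3 or low-dose replicate 1 was left out, and the difference of high against low dose ran from 0.04 without high-dose replicate 1 to 1.02 without low-dose replicate 1 or high-dose replicate 2 and was 0.20 without low-dose replicate 2.

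Smooth muscle actin, the main actin of vascular smooth muscle and of myofibroblasts, showed no order by dose. ACTA2 had log2 levels of 11.35, 11.58 and 10.26 in untreated pigs, 10.55, 12.54 and 10.96 in low-dose pigs, and 10.69 and 11.04 in high-dose pigs. All groups overlapped, and the low-dose group held the highest value and the widest range, with a mean of 11.35 ± 1.05 (SD, n = 3). The log2 differences were -0.20 ± 0.57 for high dose against untreated, 0.29 ± 0.51 for low dose against untreated and -0.49 ± 0.57 for high against low dose. Each changed sign with single animals: to 0.06 without untreated replicate 2, to -0.11 without untreated replicate 3 or -0.31 without low-dose replicate 2, and to 0.10 without low-dose replicate 2, in the same order. Actin genes are nearly identical in coding sequence, and signal from other actins on this probe set was not tested.

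ABRA, also called STARS, is a striated muscle protein that binds actin and raises SRF activity by freeing the MRTF coactivators. Its log2 level was 10.24, 11.41 and 10.69 in untreated pigs, 11.53, 9.76 and 9.28 in low-dose pigs, and 12.35 and 12.53 in high-dose pigs. Both high-dose animals lay above the rest, and next came low-dose replicate 1 and untreated replicate 2, the animals with neighbouring tag numbers. The log2 difference was 1.66 ± 0.60 for high dose against untreated and 2.25 ± 0.60 for high against low dose, folds of 3.15 and 4.75. Low dose against untreated gave -0.59 ± 0.53, with the groups overlapping, and it ran from -1.26 without low-dose replicate 1 to -0.14 without low-dose replicate 3, with -0.28 when untreated replicate 2 was left out and -0.37 for low-dose replicate 2.

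XIRP1 binds actin at the intercalated discs that join cardiac muscle cells. Its log2 level was 9.78, 12.28 and 9.91 in untreated pigs, 12.50, 9.70 and 10.36 in low-dose pigs, and 12.07 and 11.94 in high-dose pigs. The 8 values formed a low set of 4 animals between 9.70 and 10.36 and a high set of 4 between 11.94 and 12.50, with nothing between them. The high set held both high-dose animals together with untreated replicate 2 and low-dose replicate 1, so the groups overlapped in every comparison. The within-group SD of 1.28 was the 34th largest of 23999 probe sets. The log2 difference was 1.35 ± 0.90 for high dose against untreated, 0.20 ± 0.81 for low dose against untreated and 1.15 ± 0.90 for high against low dose. Single animals moved these values. For high dose against untreated the difference was 2.16 without untreated replicate 2. It was 0.91 ± 0.98 without untreated replicate 1 and 0.98 ± 1.00 without untreated replicate 3, no more than its error. Leaving out low-dose replicate 1 or 2 gave 1.97 or 0.57 for high against low dose. Low dose against untreated ran from -0.62 when low-dose replicate 1 was dropped to 1.01 when untreated replicate 2 was dropped, and was also negative with untreated replicate 1 (-0.24) or 3 (-0.17) dropped.

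**Figure D1:**
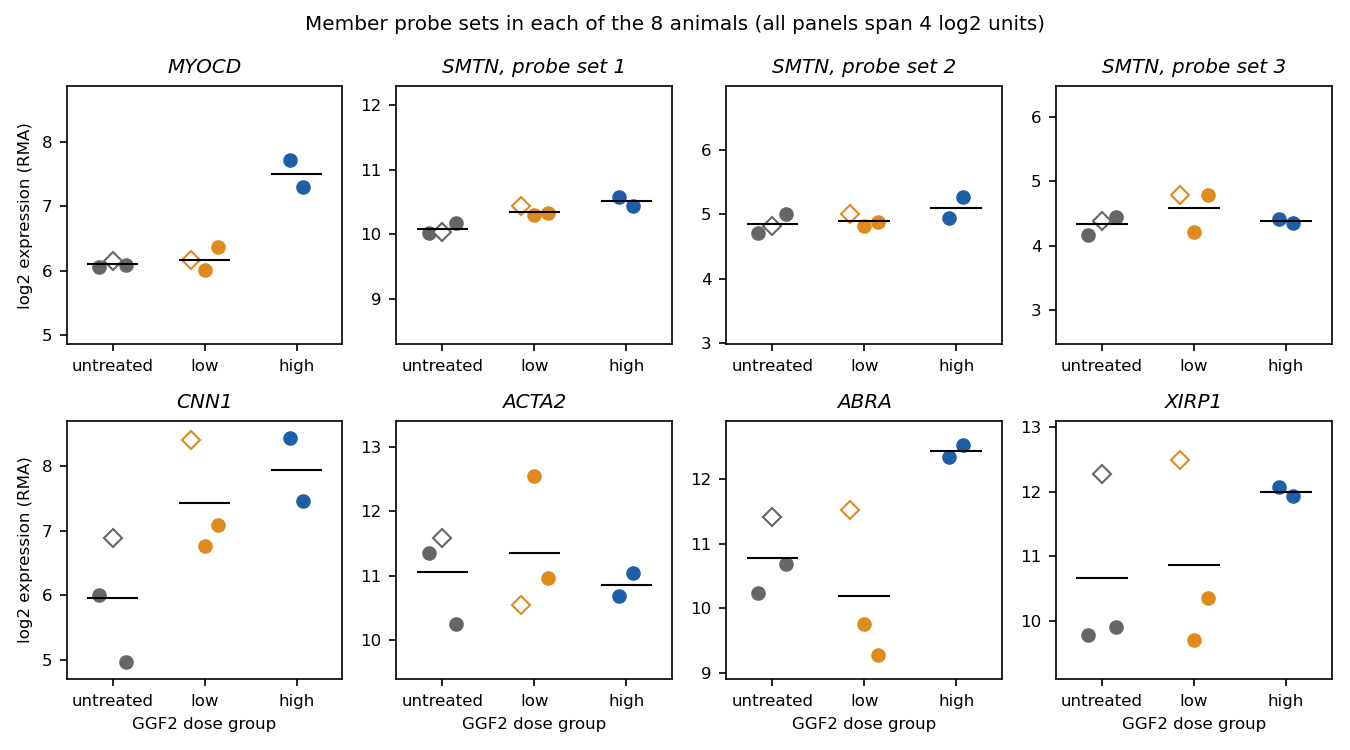
Log2 expression (RMA) of the 8 probe sets in each animal by dose group, with black lines at group means and open diamonds for untreated replicate 2 and low-dose replicate 1. MYOCD separates the high-dose animals alone, at 7.71 and 7.29, whereas XIRP1 is also high in the open diamonds, at 12.28 and 12.50.

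Untreated replicate 2 exceeded the mean of the other untreated animals by 2.43 log2 units in XIRP1, 1.40 in CNN1 and 0.95 in ABRA. Low-dose replicate 1 exceeded the other low-dose animals by 2.47, 1.49 and 2.01 in the same genes. Ranked from the highest among 23999 probe sets, the XIRP1 deviations were 30th and 9th in these animals, those of CNN1 168th and 90th, and those of ABRA 408th and 31st. ACTA2 went opposite ways in them, at 0.77 and -1.20, and MYOCD was level, at 0.08 and -0.02. What the neighbouring tag numbers stand for is not given in the sources used here.

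With both animals left out, XIRP1 and ABRA differed more at the high dose and with smaller errors. Each of these animals was the highest of its group in XIRP1, ABRA and CNN1. Leaving them out therefore had to raise the high-dose differences of these genes, and no support is drawn from the values. The XIRP1 log2 difference became 2.16 ± 0.22 for high dose against untreated, with means of 12.00 and 9.84, and 1.97 ± 0.22 for high against low dose. That of ABRA became 1.97 ± 0.22 and 2.92 ± 0.22. CNN1 was at 2.46 ± 0.41 for high dose against untreated and 1.02 ± 0.41 for high against low dose. For low dose against untreated, XIRP1 stayed near 0, at 0.19 ± 0.22, ABRA was at -0.94 ± 0.22 and ACTA2 at 0.94 ± 0.54. That fit holds 2 animals in each group.

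**Figure D2:**
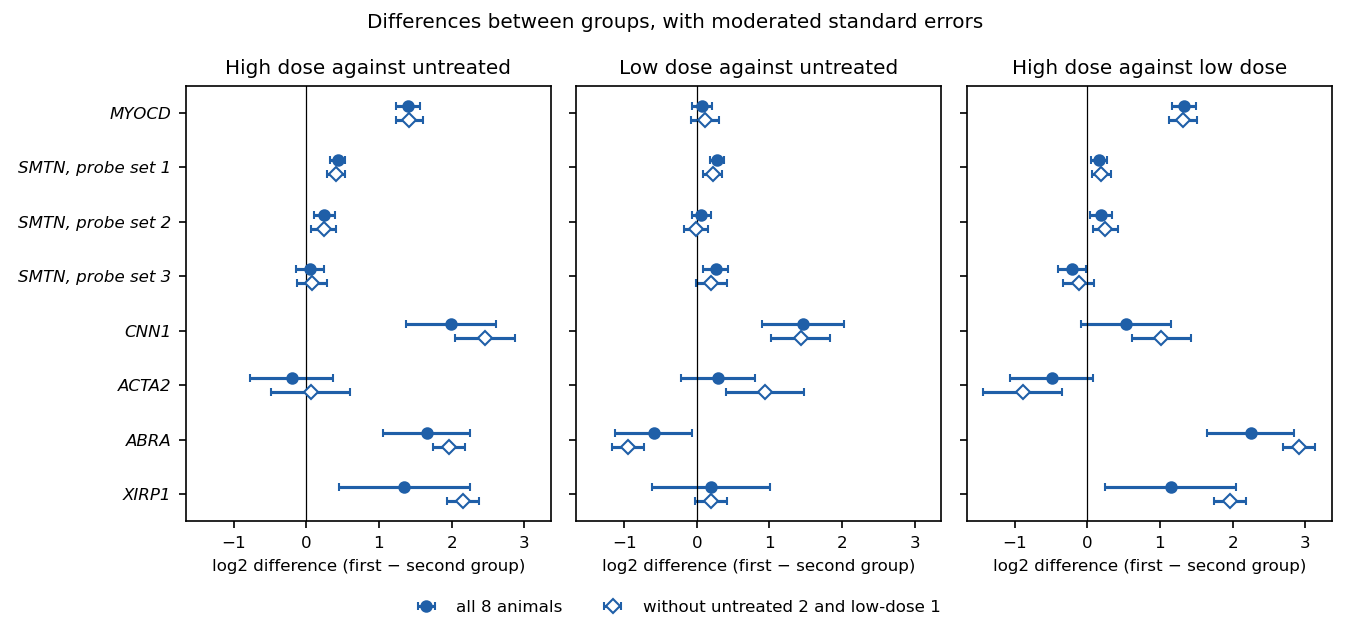
Log2 differences of the 8 probe sets in the 3 comparisons, first group minus second, with moderated standard errors as bars. Filled circles use all 8 animals and open diamonds leave out untreated replicate 2 and low-dose replicate 1: the MYOCD difference of 1.40 for high dose against untreated is 1.42 without them, and that of XIRP1 is 1.35 with them and 2.16 without them.

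Counted over the 8 probe sets, 0 had a limma adjusted p under 0.05 in any of the comparisons. Across the array that rule called 0% of probe sets for high dose against untreated (0 of 23999, with 1913 at an unadjusted p under 0.05), 0% for low dose against untreated (0, with 1081) and 0.0250% for high against low dose (6, with 2455). At the high dose, 4 of the 8 (MYOCD, the brightest SMTN probe set, CNN1 and ABRA) lay above untreated with no overlap, as did 14.7% of all probe sets. Against the low dose, 3 of the 8 lay above with no overlap (MYOCD, the brightest SMTN probe set and ABRA), as did 13.2% of all. Between low dose and untreated only the brightest SMTN probe set did, beside 5.23% of all. A difference of at least 1.5-fold upward was present for MYOCD, CNN1, ABRA and XIRP1 at the high dose against untreated (1.92% of all probe sets), for CNN1 at the low dose against untreated (1.22%), and for MYOCD, ABRA and XIRP1 at the high against the low dose (1.85%). ABRA was at least 1.5-fold lower at the low dose than in untreated animals, as were 0.538% of all probe sets. Without the animals with neighbouring tag numbers, ABRA and XIRP1 were among the probe sets passing for high dose against untreated (0.229% of all) and ABRA among those passing for high against low dose (0.050% of all, 12 probe sets). As the members were picked from these comparisons, nothing is read from these counts.

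Cells other than muscle cells also bear on bulk tissue, in which fewer cells of a type and less RNA per cell cannot be told apart. Of 11 smooth muscle and pericyte markers 6 were measured, none near background, and their summed log2 level was 11.79 to 12.38 in untreated pigs, 12.10 to 12.37 in low-dose pigs, and 11.43 to 11.84 in high-dose pigs. MYH11 and LMOD1, which define contractile smooth muscle, were among those not analysed here. The sum is taken on the linear scale and weighs most on the pericyte genes RGS5 and PDGFRB, at mean log2 levels of 10.78 and 10.28. For high dose against untreated 2 of the 6 were higher (KCNJ8 at 0.32 and TAGLN at 0.18) and 4 lower (among them RGS5 at -0.93 and PDGFRB at -0.23). Fibroblast markers (7 of 9 measured) summed to 13.10 to 13.50, 12.90 to 13.55 and 12.21 to 12.72 in untreated, low-dose and high-dose animals, and macrophage markers (5 of 8) to 9.45 to 10.05, 9.53 to 10.18 and 8.79 to 8.86. The fibroblast sum weighs most on DCN and LUM, at mean log2 levels of 12.25 and 11.17. For high dose against untreated 5 of the 7 fibroblast markers were lower and 2 higher, COL3A1 at 0.83 and TCF21 at 0.13. Endothelial markers (7 of 8, with KDR near background) summed to 10.93 to 11.13, 10.67 to 11.18 and 10.42 to 10.84, and adipocyte markers (3 of 5, with ADIPOQ near background) to 11.16 to 11.69, 11.16 to 11.45 and 10.73 to 10.99. The adipocyte sum rests almost wholly on FABP4, at a mean log2 level of 11.18 beside 6.15 for LEP. For high dose against untreated FABP4 was at -0.61 and LEP at -0.06. The gap between 3' and 5' actin control probe sets, a sign of RNA integrity, was 4.88 to 5.26 log2 units in untreated pigs, 5.48 to 6.04 in low-dose pigs, and 4.92 to 5.18 in high-dose pigs. The same gap for GAPDH was 1.09 to 1.65, 1.32 to 1.62 and 1.10 to 1.17 in untreated, low-dose and high-dose animals, so low-dose and untreated animals overlapped there and did not for actin. The part of these shifts in the values of the 6 genes was not tested.

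A list of 104 other genes of the pathway, drawn up with earlier results of these data known, had 69 measured and each was taken on its brightest probe set. None passed in any comparison. At an unadjusted limma p under 0.05, 8 were higher and 6 lower for high dose against untreated, where 7.97% of all probe sets had such a p. There were 3 higher and 0 lower for low dose against untreated (4.50% of all), and 4 higher and 4 lower for high against low dose (10.2% of all). A difference above 0 was held by 53.3%, 52.0% and 51.1% of all probe sets in these comparisons, against 44, 48 and 28 of the 69 genes. No probe set was annotated to SRF, MRTFA or MRTFB alone, and as many probe sets carry no symbol, these partners of MYOCD were not analysed here.

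Among SRF cofactors and other regulators, 9 of 14 genes were higher and 5 lower at the high dose against untreated, with a median log2 difference of 0.12 beside 0.01 for all probe sets. The median was 0.02 without untreated replicate 3, 0.06 without untreated replicate 2 or high-dose replicate 2, 0.19 without high-dose replicate 1 and 0.22 without untreated replicate 1. KLF4, a zinc finger factor that opposes the myocardin programme in smooth muscle, was at 1.52 (limma adjusted p = 0.384). Its log2 level was 9.02, 9.84 and 8.94 in untreated pigs, 10.10, 8.92 and 9.96 in low-dose pigs, and 11.02 and 10.54 in high-dose pigs, so both high-dose animals lay above the rest. HDAC5, a deacetylase that represses muscle genes, was at 0.69 (0.546), TEAD1, a partner factor of muscle promoters, at 0.32 (0.568), and RHOA, the small GTPase that drives actin assembly, at -0.41 (0.526). The LIM protein FHL2, a modulator of SRF, was at 0.00 and GATA4, a cardiac factor, at 0.30. At the low dose against untreated the list median was 0.06, with the smallest unadjusted p for MEF2D at 0.22 (adjusted p = 0.998) and the highest value for KLF4 at 0.39, and for high against low dose it was -0.03.

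As a list on their brightest probe sets, the other smooth muscle contractile genes did not share the pattern of MYOCD or CNN1. For high dose against untreated 7 of 16 were higher and 9 lower, with a median of -0.06 (-0.21 without untreated replicate 3), and for high against low dose 3 were higher and 13 lower, with a median of -0.27. ACTG2, an actin of visceral smooth muscle, was at -0.98 (limma adjusted p = 0.482) and caldesmon (CALD1), which binds actin and tropomyosin, at -0.77 (0.526) for high dose against untreated, both without overlap, as were 12.0% of all probe sets in that direction. The dimmer probe sets of these genes were at -0.27 and -1.18. In all, 3 of the 16 were lower without overlap and 2 higher, KCNMB1 at 0.24 and TPM1 at 0.13. The dimmer KCNMB1 probe set was at -0.19 and those of TPM1 at -0.48 and -0.13. A dimmer TPM2 probe set was at 0.70 for high dose and 0.89 for low dose against untreated. The other TPM2 probe sets were at 0.06, 0.19 and 0.07 for high dose against untreated. Transgelin (TAGLN), a standard target of myocardin, was at 0.18, with log2 levels of 7.43, 8.24 and 6.56 in untreated pigs, 7.54, 8.74 and 7.78 in low-dose pigs, and 7.49 and 7.68 in high-dose pigs. At the low dose against untreated 13 of 16 were higher, with a median of 0.11, and filamin A (FLNA), an actin crosslinker, was at 0.63 (0.998) and then at -0.67 (0.364) for high against low dose. The calponin relatives CNN2 and CNN3 were at 0.12 and -0.36 for high dose against untreated.

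Striated muscle genes, each on its brightest probe set, had medians near 0. For high dose against untreated 16 of 20 were higher and 4 lower, with a median of only 0.05, and their differences ran from -1.34 for the atrial peptide gene NPPA (limma adjusted p = 0.559) to 0.54 for the sodium-calcium exchanger SLC8A1 (0.752). NPPA rested on 1 animal: its log2 level was 8.45, 8.59 and 8.45 in untreated pigs, 8.05, 7.44 and 8.28 in low-dose pigs, and 8.21 and 6.09 in high-dose pigs, and the difference was -0.28 without high-dose replicate 2. For ANKRD1, a stress-responsive protein of the sarcomere and nucleus, the probe sets disagreed, with the brightest at -0.03 for high dose against untreated and 0.36 for high against low dose and the dimmer one, at a mean of 9.25, at 1.13 and 1.49. Cardiac actin (ACTC1), a direct SRF target, was at 0.08, at a mean log2 level of 13.90, and XIRP2, the relative of XIRP1, was at 0.03. XIRP2 had log2 levels of 9.80, 8.61 and 9.55 in untreated pigs, 9.77, 9.32 and 8.48 in low-dose pigs, and 9.01 and 9.68 in high-dose pigs, so of the 4 animals with high XIRP1 it was low in untreated replicate 2 and high-dose replicate 1 and near the top of the range in low-dose replicate 1 and high-dose replicate 2. Medians were 0.03 for low dose against untreated and 0.00 for high against low dose. MYH7, TNNI3, MYL2 and TNNC1, at mean log2 levels of 14.87, 14.76, 14.71 and 14.61, lay close to the highest array values. Whether their signal was saturated was not tested.

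Immediate early targets of SRF, which growth signals switch on through SRF and its ETS partners, were higher in all 6 measured genes at the high dose against untreated, with a median of 1.47. None of the 6 passed with all animals in the fit. FOS, a component of the AP-1 factor, was at 2.34 ± 0.68 (limma adjusted p = 0.42), EGR1, a zinc finger factor, at 1.94 ± 0.75 (0.562), the matrix protein gene CCN1 (CYR61 in the annotation) at 1.51 ± 0.55 (0.536) and the survival gene MCL1 at 0.57 ± 0.23 (0.595). The dimmer EGR1 probe sets were at 1.03 and 3.26. For high against low dose FOS was at 3.09 (0.245) and CCN1 at 2.16 (0.268), and the list median was 0.85, or 0.26 without low-dose replicate 2. For low dose against untreated the median was 0.56, with 4 higher and 2 lower.

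Some of these genes were high in the same animals as ABRA and XIRP1. EGR1 had log2 levels of 10.05, 12.70 and 10.17 in untreated pigs, 12.60, 11.17 and 12.33 in low-dose pigs, and 12.97 and 12.86 in high-dose pigs, so untreated replicate 2 stood far above the other untreated animals as it did in XIRP1. CCN1 had 9.85, 9.93 and 9.37 in untreated pigs, 10.42, 8.50 and 8.25 in low-dose pigs, and 11.20 and 11.24 in high-dose pigs, with low-dose replicate 1 the highest animal outside the high-dose group, as in ABRA. Low-dose replicate 3 was high in EGR1 and lowest in ABRA, so the patterns were not the same in every animal. Without the animals with neighbouring tag numbers, the differences for high dose against untreated were 1.61 ± 0.19 for CCN1 and 2.80 ± 0.34 for EGR1, and that of CCN1 for high against low dose was 2.84 ± 0.19. As leaving out untreated replicate 2 takes away the one untreated animal with high EGR1, no call is drawn from these values.

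**Figure D3:**
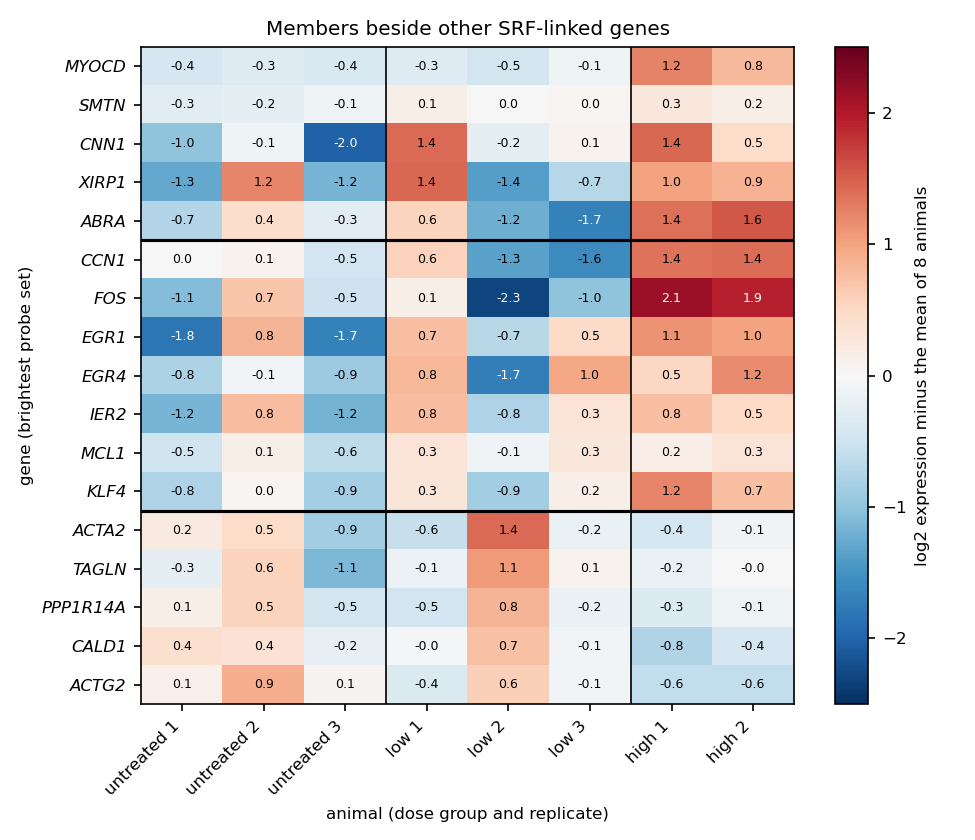
Log2 expression minus the mean of the 8 animals for 17 genes (brightest probe set) in each animal, with 5 members at the top, immediate early genes and KLF4 in the middle and ACTA2 with smooth muscle genes at the bottom. The top and middle blocks are mostly red in both high-dose animals, XIRP1 and EGR1 are also red in untreated replicate 2 and low-dose replicate 1, and the bottom block, ACTG2 aside, is reddest in low-dose replicate 2.

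Actin and focal adhesion genes had medians of -0.01 for high dose against untreated (6 of 13 higher, 7 lower), 0.10 for low dose against untreated (11 higher, 2 lower) and -0.10 for high against low dose (4 higher, 9 lower). WDR1, which helps take actin filaments apart, was at 0.41 (limma adjusted p = 0.513) for high dose against untreated and 0.34 (0.998) for low dose against untreated, with 0.53 and 0.00 on its next brightest probe set. The integrin chain ITGB1 was at -0.40 (0.519) for high dose against untreated and -0.44 (0.365) for high against low dose.

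**Figure D4:**
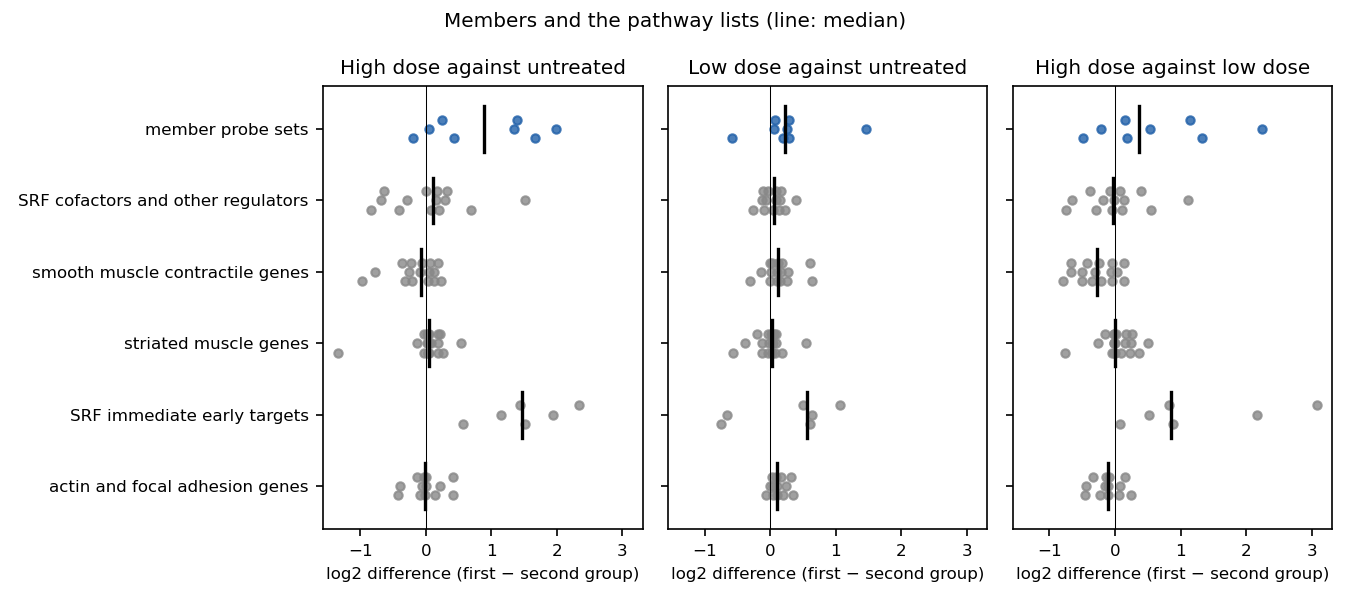
Log2 differences in the 3 comparisons, first group minus second, for the member probe sets in blue and the genes of each pathway list in grey, with black lines at medians. For high dose against untreated the immediate early list has a median of 1.47, while smooth muscle contractile genes lie around -0.06 and striated muscle genes around 0.05.

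The genes most like each member were sought by Pearson's r over the 8 arrays among 4101 probe sets with 1 symbol, a mean above the lower quartile and an SD of at least 0.2. As they are the highest of many and the arrays share 1 normalization, r is a description with no test. MYOCD was most like UTP15, a ribosome biogenesis factor (r = 0.975), BTBD9 (0.966), the mitochondrial ribosome protein MRPL15 (0.965), the ubiquitin ligase subunit FBXW7 (0.960) and the chaperone relative HSPA13 (0.947). UTP15 averaged 5.06 in untreated pigs, 5.05 in low-dose pigs, and 6.14 in high-dose pigs. With group means removed, MRPL15 (0.948) was the 1 gene of these to stay among the nearest 5, beside SEPT7, PPIL2, ARMC6 and NFATC1.

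For ACTA2, 3 of the nearest 5 genes were of smooth muscle. PPP1R14A, an inhibitor of myosin phosphatase, had r = 0.968, the potassium channel subunit KCNMB1 had 0.954 and beta-tropomyosin (TPM2) had 0.947. All 3 were again among the nearest 5 with group means removed (0.989, 0.978 and 0.993). The nearest 5 also held LOC100523107 (0.962) and C7 (0.925), and with group means removed LYST (0.982) and MGP (0.981). The KCNMB1 and TPM2 probe sets in question were not the brightest ones of these genes, and the brightest KCNMB1 probe set varied little, from 5.98 to 6.36. PPP1R14A was dim, at 3.67 to 4.99, and highest, like ACTA2 and TAGLN, in low-dose replicate 2.

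XIRP1 was most like SLC38A1, an amino acid transporter (r = 0.986), the vitamin transporter SLC5A6 (0.983), GMFB (0.976), the AP-1 component FOSL2 (0.972) and lamin A (LMNA, 0.963). SLC38A1 was at 10.36 in untreated replicate 2 and 10.79 in low-dose replicate 1, against group means of 9.67 and 9.95. With group means removed the nearest were SLC38A1 (0.995), SLC5A6 (0.985), the angiogenic factor VEGFA (0.984), the AP-1 component FOSL1 (0.982) and THBD (0.981). ABRA was most like CCN1 (0.961), the growth arrest gene GADD45G (0.959), the mitochondrial carrier UCP3 (0.949), TSTD2 (0.946) and GMIP (0.945). None of these 5 was among the nearest with group means removed, which were SGSM3, PGD, ACAT2, DECR2 and MARCH3 (0.970 to 0.982).

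CNN1 was most like the splicing factor SRSF2 (r = 0.972), TP53INP2 (0.966), AZIN1 (0.947), WDR1 (0.939) and the calpain subunit CAPNS1 (0.935). With group means removed the nearest were SYT1, SLC7A1, RAP1GDS1, ITGA5 and PATL1 (0.970 to 0.994). SMTN, on its brightest probe set, was most like VRK3 (0.913), the mitochondrial deacetylase SIRT3 (0.904), PDE4A (0.901), ADCK5 (0.896) and GPAM (0.889), the lowest values of the 6 members. With group means removed they were DGKZ, PITRM1, CTNNBL1, ETNK2 and SERHL2 (0.923 to 0.978). No member was among the nearest 5 genes of another member by either measure. Some members still varied together: with group means removed, r was 0.87 for ABRA with XIRP1, 0.86 for CNN1 with XIRP1 and 0.68 for CNN1 with ABRA. It was -0.79 for SMTN with ACTA2, and the other pairs of members ran from -0.43 to 0.44. ABRA, CNN1 and XIRP1 all stood above their groups in untreated replicate 2 and low-dose replicate 1. How far r between them rests on these animals was not tested.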

How the data were processed

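Expression was measured in 8 left ventricle samples with 1 Affymetrix porcine array each. The authors deposited log2 expression values made with RMA and Partek 6.6, per the submitters' processing notes, with no other setting stated there. RMA removes background signal, quantile-normalizes and summarises probes, so a shift shared by most genes is removed. Groups follow the treatment label; replicate numbers only name animals.

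Without 124 control probe sets, 23999 remained for testing. Symbols came from the platform annotation: 10069 probe sets had 1 symbol, 198 several and 13732 none. Coordinates are not given, as no genome was used.

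A model with a mean for each of the 3 groups was fitted in limma 3.58.1 (R 4.3.3), with 5 residual and 3.50 prior degrees of freedom. It was tested on simulated data, and p-values were adjusted by Benjamini-Hochberg over all probe sets in each comparison, with a threshold of 0.05. Members, lists and the rule for named genes were chosen with earlier results of these data known. The rule allowed all member probe sets, up to 4 genes with the smallest p for each list and comparison, 6 genes of the pathway where measured (SRF, TAGLN, MYH11, ACTC1, ACTA1 and XIRP2), and the 5 nearest genes of each member. FHL2, TPM1 and TNNC1, and IER2 in a figure, were named after their values were seen. So were the markers KCNJ8, RGS5, PDGFRB, DCN, LUM, COL3A1, TCF21, FABP4, LEP, MYH7, TNNI3 and MYL2. Alternatives were other variance priors, a filter on dim probe sets, other normalizations, fits of only 2 groups, array weights, a looser threshold, averaging all probe sets of a gene, and leaving out animals.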

Additional observations from a re-analysis of the deposited data

How the results depend on the processing

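The count of passing probe sets in limma was 0 for high dose against untreated, and it was 4 with an intensity trend, 7 with a robust prior, 3 with centred arrays, 9 with repeated quantile normalization, 2 with only these groups, 13 with array weights, 10 at an adjusted p under 0.1 and 55 without the animals with neighbouring tag numbers. Leaving out 1 animal gave 0 to 19: 19 without untreated replicate 2, 2 without low-dose replicate 1 and 1 without untreated replicate 1. For low dose against untreated it was 0, and 1 without the animals with neighbouring tag numbers. For high against low dose it was 6, and it was 1 with dim probe sets left out, 0 with only these groups, 10 with array weights, 14 at an adjusted p under 0.1 and 12 without the animals with neighbouring tag numbers. Leaving out 1 animal gave 0 to 7: 0 without untreated replicate 1 or 3, low-dose replicate 2 or 3, or high-dose replicate 1, and 1 without high-dose replicate 2. The cause was not tested. The MYOCD log2 difference was 1.19 to 1.61 for high dose against untreated and 1.12 to 1.54 for high against low dose when 1 animal was left out. With a robust prior, repeated quantile normalization or array weights, MYOCD was among the probe sets passing for high dose against untreated. It passed for high against low dose with centred arrays, repeated quantile normalization or array weights. MYOCD passed in neither comparison in the main fit, with an intensity trend, with dim probe sets left out or with only the groups compared. Nor did it pass with any 1 untreated or low-dose animal left out. As the members were picked from these comparisons, no call is drawn from the settings in which MYOCD passed. Without the animals with neighbouring tag numbers, ABRA passed in both of these comparisons and XIRP1 for high dose against untreated. That fit holds 2 animals in each group. Several of the genes were known to stand high in the animals left out when this was chosen, so no call is drawn from it. When all probe sets of a gene were averaged, 0 list genes passed. No paired analysis was possible because each array is from a separate pig and the labels match no animals between groups. The small number of arrays limits precision, and high-dose values rest on 2 animals.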
